A study of Mus musculus with 19 samples.

Results

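MHC class I and peptide-loading genes were examined in 19 mouse livers that differed in Ager and Myd88. The set held 10 genes. Among them were the class I heavy chain genes H2-K1, H2-D1, H2-Q10, H2-T23 and H2-M3, and H2-Bl, which RefSeq lists as a transcribed pseudogene. The others were the light chain gene B2m, the peptide transporter genes Tap1 and Tap2, and Tapbp, which encodes tapasin. The probe sets of the 10 genes were those that the platform annotation ties to exactly 1 gene symbol, which came to 25 of 34945 such probe sets on the array. H2-T23 had none of its own, so the 25 probe sets stood for 9 of the 10 genes. Of the 25, 19 exceeded log2 4 on at least 4 arrays and were tested among 13505 probe sets that passed this filter. The other 6, of which 3 belong to H2-D1 and 3 to Tap1, lay between 1.15 and 3.27 (log2) on every array and are not described further.

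The animals were male C57BL/6 mice aged 10 to 12 weeks, killed 2 h after surgical removal of 85% of the liver. MRKO livers (n = 4) were null for both Ager and Myd88, MKO livers (n = 4) for Myd88, RKO livers (n = 6) for Ager, and WT livers (n = 5) for neither. All groups had the resection and none had any other treatment in the labels, so every difference below is between genotypes after resection, and no liver without resection was analysed here. RAGE, the product of Ager, is a receptor on the cell surface that binds HMGB1, S100 proteins and glycated proteins. The Myd88 protein carries signals inward from interleukin-1 and most Toll-like receptors. Expression was measured on Affymetrix arrays, 1 per animal, as log2 GCRMA values.

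Class I molecules display peptides from inside the cell to CD8 T cells and natural killer cells. A heavy chain pairs with beta-2 microglobulin in the endoplasmic reticulum, where tapasin holds it beside the transporter of Tap1 and Tap2 until a peptide made by the proteasome binds. Interferons and NF-kB raise the transcription of most of these genes, and hepatocytes make both cell-bound class I and the secreted heavy chain of H2-Q10. The genes for the heavy chains, Tap1, Tap2 and Tapbp lie in the MHC on mouse chromosome 17, as does Ager, and B2m lies on chromosome 2.

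In the order of annotated genes (RefSeq, GRCm38.p6), Tapbp, H2-K1, Tap1 and Tap2 stood 52, 42, 23 and 21 places before Ager. H2-D1, H2-Q10, H2-T23, H2-Bl and H2-M3 stood 79, 95, 137, 143 and 221 places after it. Gene coordinates are left out, because no source used here names the build of the array annotation.

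Myd88 averaged 3.45 ± 0.58 in MRKO and 3.49 ± 0.34 in MKO livers, against 5.91 ± 0.38 in RKO and 5.55 ± 0.29 in WT livers (log2, SD), and the arrays of the Myd88-null groups lay under all others. The 2 Ager probe sets were under the filter, with group means between 2.19 and 3.37, and check nothing. MKO 4 stood apart from the other arrays, with a median correlation of 0.961 against 0.977 to 0.985 for the rest. The labels call the tissue liver, although their extraction text speaks of glomeruli. Hepatocyte markers had a median level of 14.05, kidney and glomerulus markers one of 2.48, and 0 of 11 kidney markers exceeded log2 4 on every array.

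H2-Bl was the only one of these genes that passed the test in any comparison, and it was higher wherever Ager was missing. Its 1 probe set (1450531_at) read 4.39-fold higher in RKO than in WT livers and 7.9-fold higher in MRKO than in MKO livers. The other 18 probe sets, which stand for H2-K1, H2-D1, H2-Q10, H2-M3, B2m, Tap1, Tap2 and Tapbp, passed in 0 of 7 comparisons. RefSeq lists H2-Bl, named histocompatibility 2, blastocyst, as a transcribed pseudogene.

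**Figure D1:**
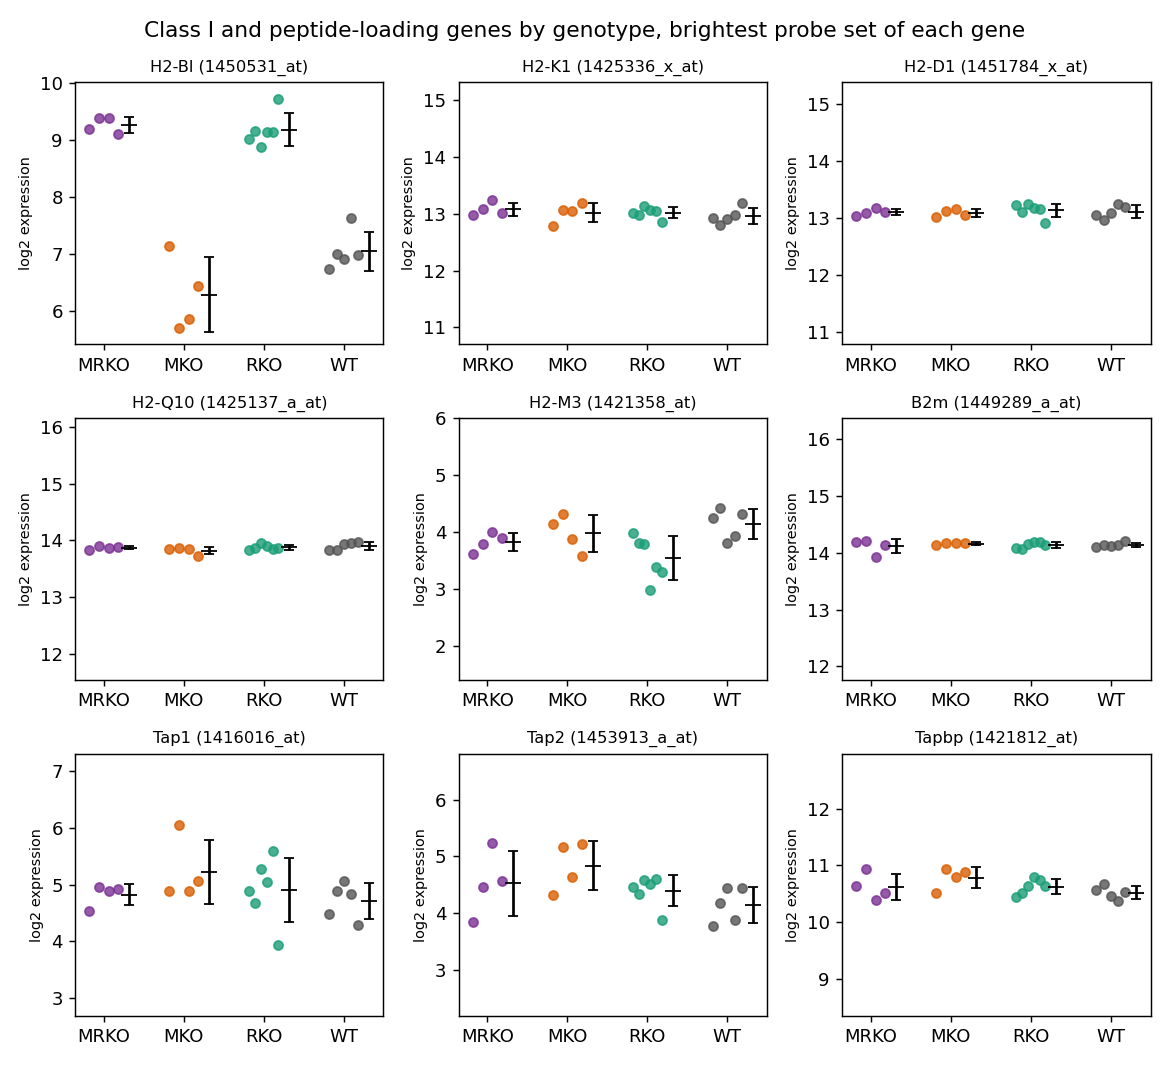
Log2 expression (y axis) of the brightest probe set of each of 9 genes by genotype (x axis); points are arrays in replicate order, and the bars beside them give the mean and SD. Every panel spans the same number of log2 units: H2-Bl averages 9.27 in MRKO and 9.18 in RKO, against 6.29 in MKO and 7.05 in WT, while the groups of the other genes overlap.

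H2-Bl read 9.20, 9.39, 9.38 and 9.10 in the MRKO livers (log2). It read 7.14, 5.70, 5.85 and 6.44 in the MKO livers. In RKO livers it ran from 8.87 through a median of 9.15 to 9.73, and in the WT livers it was 6.73, 6.99, 6.91, 7.63 and 6.98. All 10 arrays without Ager lay over all 9 arrays with it, and the lowest of those 10, RKO 3 at 8.87, was over WT 4, the highest of the 9, at 7.63. The 4 genotypes thus ordered as MRKO, RKO, WT and MKO.

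In RKO against WT, H2-Bl was higher by 2.13 ± 0.22 (log2, SE; 95% interval 1.67 to 2.60; limma, adjusted p = 8.8e-05), the second smallest p of all tested probe sets. It was 1 of 19 class I and peptide-loading probe sets called there, where 0.74% of all tested probe sets were called at an adjusted p under 0.05. The RKO and WT arrays did not overlap, as was so for 3.39% of all tested probe sets. In MRKO against WT the difference was 2.22 ± 0.24 (1.71 to 2.73; 4.66-fold; limma, adjusted p = 6.5e-05). Again 1 of 19 was called, against 0.267% of all tested, and the arrays did not overlap, against 3.42% of all tested.

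The loss of Ager was also compared in livers without Myd88. MRKO exceeded MKO livers by 2.98 ± 0.26 (2.44 to 3.52; limma, adjusted p = 1.0e-05), the smallest p of all tested probe sets. H2-Bl was the 1 of 19 called there, against 0.148% of all tested, and the arrays did not overlap, against 5.41% of all tested. Without MKO 4, the array that stood apart, the difference was 3.03 ± 0.28 (limma, adjusted p = 6.2e-05). Averaged over both Myd88 backgrounds, the loss of Ager gave 2.56 ± 0.17 (2.20 to 2.91; 5.89-fold; limma, adjusted p = 1.3e-07), again the smallest p and the 1 of 19 called, against 0.281% of all tested. The comparisons that end in WT share the WT arrays, and the pooled one is built from RKO against WT and MRKO against MKO, so these values are not independent of each other.

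The loss of Myd88 did not pass the test for H2-Bl. MKO minus WT was -0.76 ± 0.24 (-1.27 to -0.25; limma, adjusted p = 0.14), and 0 of 19 probe sets were called, against 0.267% of all tested. Of the 4 MKO arrays, MKO 1 at 7.14 lay among the WT arrays and the other 3 lay under them, so that 0 of 19 probe sets had groups without overlap, against 4.24% of all tested. Without MKO 1 the difference was -1.05 ± 0.21 and passed (limma, adjusted p = 0.0099), so that this call rests on which MKO livers are kept. In that setting 2 of 19 probe sets were called, and 1378 of all 13505, against 36 of them with all arrays. MRKO minus RKO was 0.09 ± 0.24 (-0.41 to 0.58; limma, adjusted p = 0.86), and 0 of 19 probe sets were called, against 1.47% of all tested. Groups without overlap were also 0 of 19 there, against 8.46% of all tested.

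The interaction, MRKO minus RKO less MKO minus WT, was 0.85 ± 0.34 for H2-Bl (0.14 to 1.56; limma, adjusted p = 0.14), with 0 of 19 called against 1.57% of all tested. Without MKO 1 it was 1.13 ± 0.28 and passed (limma, adjusted p = 0.014). In that setting 1 of 19 probe sets was called, and 2539 of all 13505, against 212 of them with all arrays. The gap that Ager loss left in H2-Bl was therefore not shown to depend on Myd88 with all arrays in the fit.

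The sample descriptions carry an S number whose meaning they do not state. All 6 RKO arrays bear numbers between 13 and 20, a range they share with WT 5 and MKO 4 only, and no MRKO array lies there. Within S 13 to 20, H2-Bl averaged 9.18 in RKO livers and 6.98 in WT 5, a difference of 2.20. MRKO minus MKO came to 2.87 for S 1 to 6 (2 arrays each) and to 3.39 for S 7 to 12 (2 MRKO arrays against MKO 3 only). The cuts between these ranges were set here and are not in the labels. MRKO minus WT came to 2.44 and 1.97 in those ranges. With the range as a block, RKO minus WT was 2.09 ± 0.34 (limma, adjusted p = 0.0069).

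**Figure D2:**
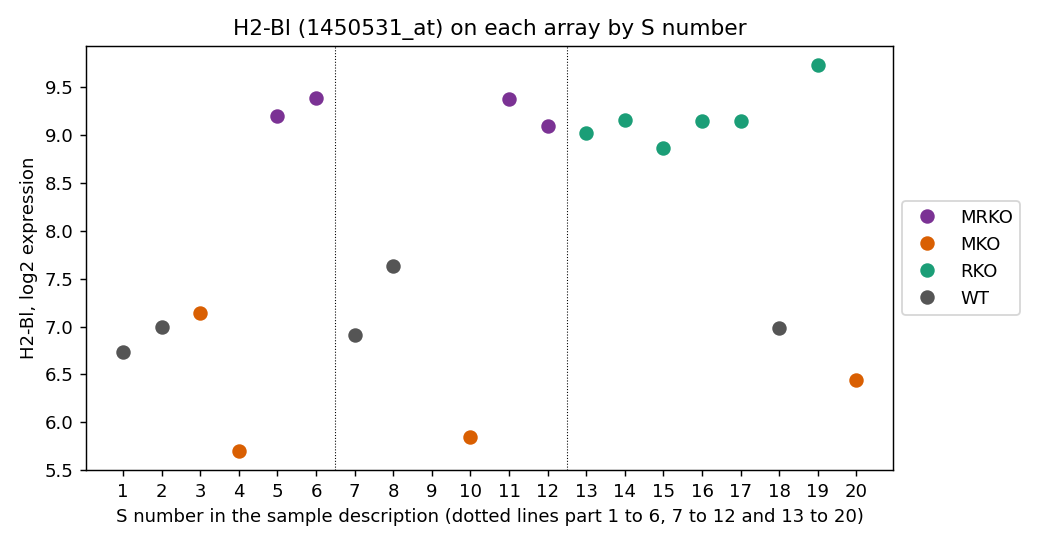
H2-Bl log2 expression (y axis) of each of 19 arrays, coloured by genotype, against the S number of its sample description (x axis). In S 1 to 6 and S 7 to 12 the MRKO points, at 9.10 or higher, lie over all WT and MKO points, and in S 13 to 20 the RKO points, at 8.87 or higher, lie over WT 5 (6.98) and MKO 4 (6.44).

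In these bulk samples a different number of cells that make H2-Bl and a different amount of its RNA per cell cannot be told apart. Kupffer cell and macrophage markers (14 of 14 on the array) scored 8.22 to 8.91 in MRKO, 6.59 to 8.57 in MKO, 7.85 to 9.04 in RKO and 8.07 to 8.97 in WT livers, as the mean log2 value of the list, so these ranges overlapped. The lowest MKO score was that of MKO 4. The 14 tested genes of this list had a median difference of 0.57 in MRKO against MKO (0.16 to 1.20), against -0.01 for all tested probe sets. The median was -0.24 in RKO against WT, against 0.03, and -0.63 in MKO against WT, against 0.06. In each of these comparisons 0 of the 14 were called, against 0.148% to 0.74% of all tested. Of 12 T and NK cell markers and 5 dendritic cell markers, 0 exceeded log2 4 on every array, and their mean scores stayed between 2.50 and 2.80. B and plasma cell markers scored 3.36 to 3.52 in MRKO, 3.14 to 3.68 in MKO, 3.12 to 3.43 in RKO and 3.09 to 3.22 in WT livers, with 0 of 8 over log2 4 on every array. Among them Igha, the heavy chain of immunoglobulin A, was higher than in WT by 2.17 ± 0.31 in MRKO, 2.04 ± 0.31 in MKO and 1.35 ± 0.28 in RKO livers (limma, adjusted p = 0.0015, 0.0058 and 0.033). Igha was the 1 of 3 tested genes of this list called in each of these comparisons, against 0.267%, 0.267% and 0.74% of all tested. Stellate cell markers (10 of 10 on the array, 5 of them over log2 4 on every array) scored 5.68 to 6.04 in MRKO, 5.50 to 5.82 in MKO, 5.57 to 6.02 in RKO and 5.42 to 5.70 in WT livers. Their 7 tested genes had a median difference of 0.57 in RKO against WT, where all tested probe sets had 0.03, and of 0.44 in the pooled comparison, against 0.01. Col1a2, a collagen gene, was called in RKO against WT (0.72 ± 0.16; limma, adjusted p = 0.039), and in MRKO against MKO it gave 0.16 ± 0.18 (adjusted p = 0.66). The part of any of these cell types in the H2-Bl difference was not tested.

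A second probe set that names H2-Bl among 3 symbols (1447260_at, also Gm38417 and LOC547349) cannot be given to 1 gene. It averaged 5.53 ± 0.50 in MRKO, 3.47 ± 0.23 in MKO, 5.41 ± 0.31 in RKO and 3.82 ± 0.25 in WT livers (log2, SD). It passed the filter mainly through the arrays without Ager, so its difference is a description. Its lowest MRKO array read 5.03, against 3.67 for the highest MKO array and 4.03 for the highest WT array.

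Called probe sets took a larger share near Ager than elsewhere in the comparisons of Ager loss, a difference in shares that was not tested. Of 133 probe sets tested for genes within 150 places of Ager, those of the class I and loading genes there included, 5 (3.76%) were called in RKO against WT, against 95 of 13372 (0.71%) elsewhere. In MRKO against MKO the counts were 3 of 133 (2.26%) near Ager and 17 of 13372 (0.127%) elsewhere. In MRKO against WT they were 3 of 133 (2.26%) and 33 of 13372 (0.247%). H2-Bl is among those called near Ager in each of these comparisons. In MKO against WT, where both groups carry Ager, the counts were 0 of 133 near it and 36 of 13372 (0.269%) elsewhere. At so small a share, 0 of 133 does not set the region apart. In MRKO against RKO, where neither group carries Ager, the counts were 1 of 133 (0.752%) and 197 of 13372 (1.47%). The part of the DNA linked to Ager in the H2-Bl difference was not tested, and no sequence of the animals was analysed here.

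Besides H2-Bl, 4 probe sets near Ager were called in the pooled Ager comparison, each with a smaller estimate than that of H2-Bl. They belong to Tubb5, a beta-tubulin, at 0.79 ± 0.10 and 117 places after Ager, Rnf5, a ubiquitin ligase of the endoplasmic reticulum, at 0.48 ± 0.08 and 1 place after it, and the salt-inducible kinase gene Sik1 at -0.82 ± 0.11 and 142 places before it (limma, adjusted p = 0.00025, 0.0078 and 0.0011). The fourth was a probe set of the zinc finger gene Zfp955b (1453198_at), at 1.13 ± 0.15 and 81 places before Ager (limma, adjusted p = 0.00051), while the brighter probe set of that gene gave 0.76 ± 0.19 (adjusted p = 0.16). By the brightest probe set of each gene, Atat1, Mrps18b, Abcf1 and Prr3 were tested within 20 places of H2-Bl, all on its side toward Ager. The genes read by place here lay within 150 places of Ager, apart from H2-M3 at 221. Since H2-Bl stands at 143, most of its far side was not covered. For Atat1, Mrps18b, Abcf1 and Prr3 the pooled differences were 0.74 ± 0.18, 0.18 ± 0.11, -0.02 ± 0.09 and -0.42 ± 0.27. They did not pass (limma, lowest adjusted p = 0.13 for Atat1, which encodes a tubulin acetyltransferase).

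**Figure D3:**
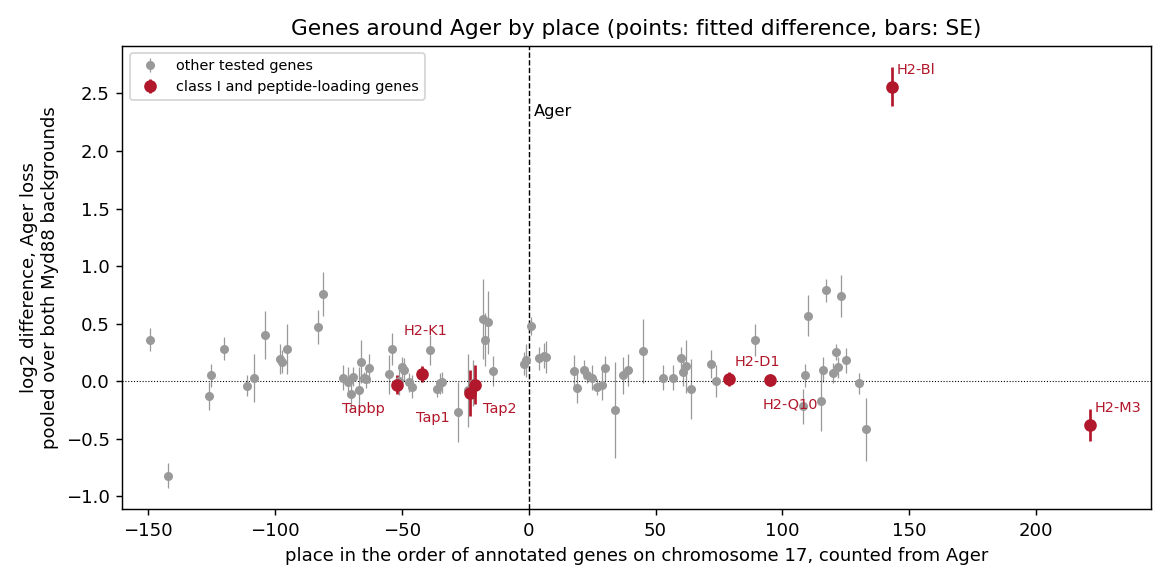
Log2 difference with Ager loss pooled over both Myd88 backgrounds (y axis, points; bars are SE) of tested genes, each by its brightest probe set, by their place in gene order from Ager (x axis), within 150 places and for H2-M3 beyond it. H2-Bl, 143 places after Ager, stands at 2.56, while Tap1, Tap2, H2-K1, Tapbp, H2-D1 and H2-Q10, all nearer to Ager, lie close to 0.

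The 5 probe sets whose profile over 19 arrays was most like that of H2-Bl all belong to genes on chromosome 17. Likeness was the root mean square difference between profiles centred on their means, for which the median of all tested probe sets was 1.36 (log2). Gfer, which encodes augmenter of liver regeneration, came nearest at 0.64 (probe set 1426995_a_at), followed by the glyoxalase gene Glo1 (0.83), the meiosis gene Meiob (0.86), the zinc finger gene Zfp955b (0.91) and the lipid transporter gene Abca3 (0.92). The Gfer probe set averaged 8.12 in MRKO and 5.72 in MKO livers, and 7.55 in RKO and 5.46 in WT livers. Glo1 averaged 12.92 in MRKO and 11.84 in MKO livers, and 12.94 in RKO and 11.64 in WT livers. In gene order they lie 421, 175, 409, 81 and 446 places before Ager, on the side away from H2-Bl. The likeness is a description of these arrays, and it was not tested.

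The classical heavy chain genes H2-K1 and H2-D1, whose products present peptides to CD8 T cells, had overlapping readings in all genotypes. The brightest H2-K1 probe set (1425336_x_at) read 12.97, 13.08, 13.24 and 13.02 in MRKO livers and 12.78, 13.07, 13.04 and 13.19 in MKO livers. In RKO livers it ran from 12.85 through a median of 13.02 to 13.14, against 12.93, 12.80, 12.90, 12.98 and 13.19 in WT livers. The 4 groups overlapped, and all 19 arrays lay within 0.46 of each other. RKO minus WT was 0.05 ± 0.10 (-0.15 to 0.25; limma, adjusted p = 0.78), and MRKO minus MKO was 0.06 ± 0.11 (-0.17 to 0.29; limma, adjusted p = 0.81).

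The brightest H2-D1 probe set (1451784_x_at) read 13.04, 13.09, 13.18 and 13.10 in MRKO livers and 13.02, 13.13, 13.15 and 13.05 in MKO livers. In RKO livers it ran from 12.92 through a median of 13.16 to 13.24, against 13.06, 12.96, 13.08, 13.25 and 13.19 in WT livers. These groups overlapped too. RKO minus WT was 0.03 ± 0.08 (-0.14 to 0.20; limma, adjusted p = 0.85), and MKO minus WT was -0.02 ± 0.09 (-0.21 to 0.17; limma, adjusted p = 0.92).

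The intervals bound the difference in signal of these probe sets. How closely signal follows the amount of RNA at such high levels was not tested. For RKO against WT the 95% interval reached no further than 1.19-fold for the brightest H2-K1 probe set and 1.15-fold for the brightest H2-D1 probe set, in either direction. Their probe set names end in x_at, the maker's mark for probes that can also match other sequences, so signal from near-identical class I genes may be mixed in them. All 4 probe sets of H2-K1 and 5 of the 6 tested ones of H2-D1 carry this mark. A probe set shared by both genes by annotation (1424948_x_at) gave 0.01 ± 0.10 in RKO against WT.

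Of each gene, 1 tested probe set had the widest range over the 19 arrays. H2-D1 probe set 1426324_at, the tested one without the mark, gave RKO minus WT -0.44 ± 0.22 (-0.91 to 0.03; limma, adjusted p = 0.26), with WT 5 at 7.04 over every other array. It also gave the largest interaction estimate among the 18, 0.66 ± 0.34 (limma, adjusted p = 0.23). H2-K1 probe set 1450534_x_at gave RKO minus WT -0.25 ± 0.19 (limma, adjusted p = 0.46), with a range over all arrays from 7.05 to 8.50.

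The promoters of H2-K1, H2-D1, H2-Q10 and B2m are shown because NF-kB, to which both RAGE and Myd88 signal, and interferon-activated factors are known to act through such elements at class I genes. Each is the 250 bases before a gene's start in RefSeq (GRCm38.p6), 5′ to 3′ on the gene's strand, for H2-K1 before the first of its listed starts. Capitals mark GGGATTCCC, the core of the NF-kB element, in H2-Q10 the letters in its place, and TTTCACTT, the core of the interferon element. The table held promoters of 8 of the 10 genes, and none of H2-Bl or Tap2.
H2-K1, chr17:34000348-34000597, minus strand: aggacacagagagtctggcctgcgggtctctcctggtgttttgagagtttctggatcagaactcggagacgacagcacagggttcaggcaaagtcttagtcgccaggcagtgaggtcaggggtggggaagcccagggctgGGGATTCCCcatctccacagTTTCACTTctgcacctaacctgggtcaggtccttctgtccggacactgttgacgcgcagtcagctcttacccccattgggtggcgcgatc
H2-D1, chr17:35262844-35263093, plus strand: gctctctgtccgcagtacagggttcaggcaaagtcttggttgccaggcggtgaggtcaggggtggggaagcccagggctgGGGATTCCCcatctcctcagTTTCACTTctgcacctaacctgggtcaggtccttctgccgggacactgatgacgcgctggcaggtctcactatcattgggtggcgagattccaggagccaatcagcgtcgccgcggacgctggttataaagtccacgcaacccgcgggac
H2-Q10, chr17:35469839-35470088, plus strand: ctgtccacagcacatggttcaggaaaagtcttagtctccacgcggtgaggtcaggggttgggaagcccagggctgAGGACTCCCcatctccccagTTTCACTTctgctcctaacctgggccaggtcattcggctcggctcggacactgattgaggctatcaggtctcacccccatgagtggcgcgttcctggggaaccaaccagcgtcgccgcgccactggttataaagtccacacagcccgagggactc
B2m, chr2:122147437-122147686, plus strand: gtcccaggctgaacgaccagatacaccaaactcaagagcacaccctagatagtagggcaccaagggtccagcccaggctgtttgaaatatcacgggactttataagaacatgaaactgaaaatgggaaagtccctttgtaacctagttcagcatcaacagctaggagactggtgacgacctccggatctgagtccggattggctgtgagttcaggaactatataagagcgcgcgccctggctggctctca

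H2-K1 and H2-D1 both held GGGATTCCC, starting 110 and 170 bases before their starts, a run found on either strand in 99 of 32851 promoters of this length (0.301%). It began 20 bases before the start of TTTCACTT in both. At that same distance H2-Q10 had AGGACTCCC, which differs by G1A and T5C, counted from 1 at the first base of the run. TTTCACTT was found on either strand in 1.36% of all promoters. B2m, Tap1, Tapbp and H2-T23 had neither run, and H2-M3 had TTTCACTT without GGGATTCCC. These matches describe letters only, and the data hold no binding measurement.

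H2-Q10, the secreted class I heavy chain made by liver, was among the steadiest readings on the arrays. Its probe set read 13.84, 13.91, 13.87 and 13.88 in MRKO livers and 13.85, 13.86, 13.85 and 13.73 in MKO livers. Its RKO values ran from 13.84 through a median of 13.86 to 13.95, against 13.84, 13.83, 13.93, 13.96 and 13.97 in WT livers. The groups overlapped and the within-group SD was 0.05, against a median of 0.28 for all tested probe sets, of which 0.126% had a smaller one. RKO minus WT was -0.03 ± 0.07 (-0.17 to 0.11; limma, adjusted p = 0.84) and MKO minus WT -0.08 ± 0.08 (-0.24 to 0.07; limma, adjusted p = 0.57).

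**Figure D4:**
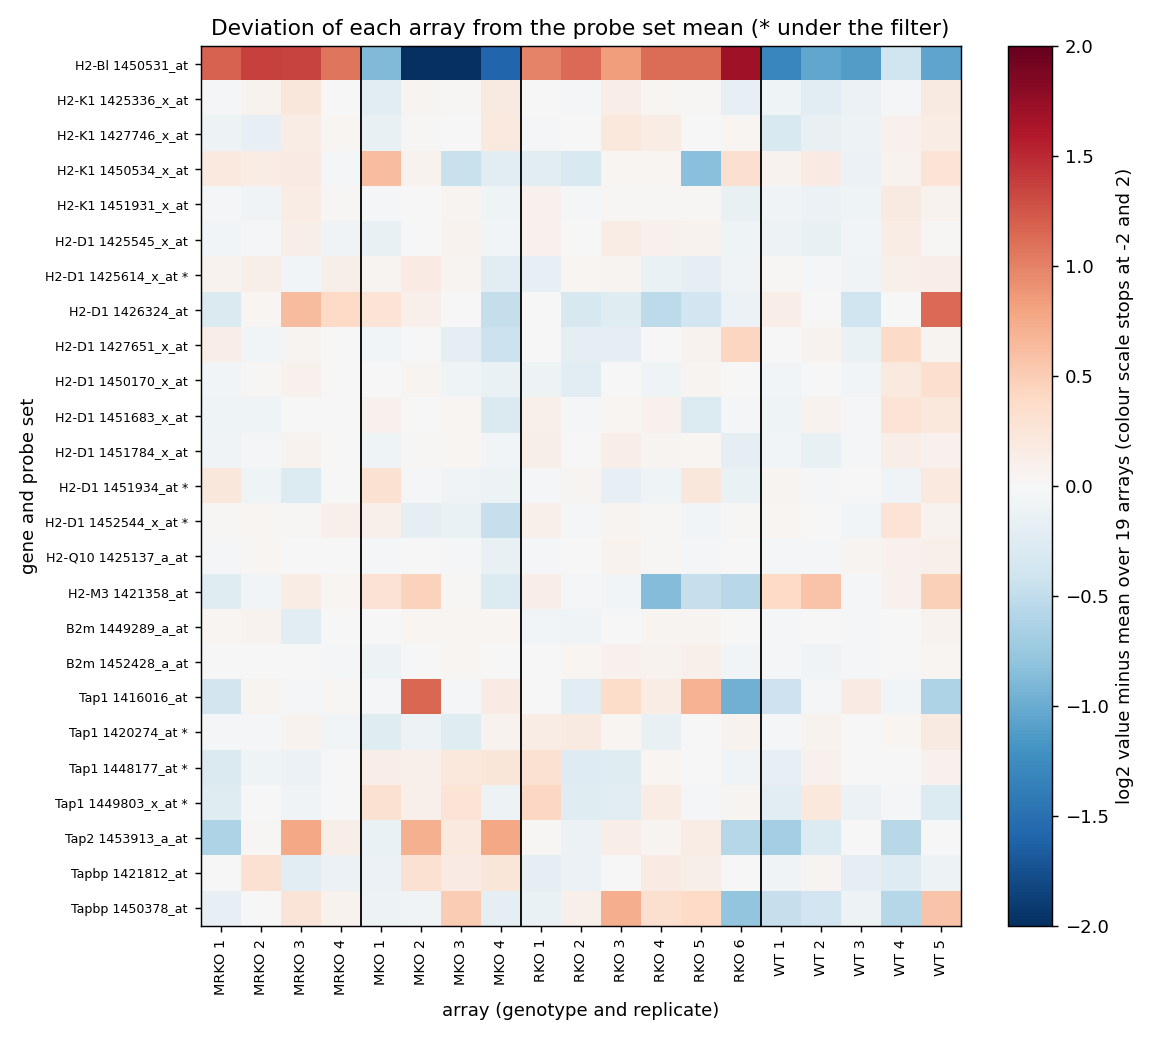
Deviation of each array (x axis, by genotype and replicate) from the mean over 19 arrays, for all 25 probe sets (y axis), in log2 units as colour that stops at -2 and 2; an asterisk marks the 6 under the filter. The H2-Bl row parts the arrays without Ager (9.73 at RKO 6) from those with it (5.70 at MKO 2), and no other row of a tested probe set parts RKO from WT or MRKO from MKO.

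H2-M3, which presents N-formylated peptides such as those of bacteria and mitochondria, lay at the edge of detection, with 5 of 19 arrays over log2 4, of which 3 were WT, 2 MKO and none RKO or MRKO. It read 3.61, 3.79, 4.00 and 3.89 in MRKO livers and 4.14, 4.31, 3.87 and 3.57 in MKO livers. The RKO livers ranged from 2.98 through a median of 3.59 to 3.99, against 4.25, 4.42, 3.81, 3.93 and 4.32 in WT livers. RKO 1 at 3.99 lay among the WT arrays, so the groups overlapped. RKO minus WT was -0.60 ± 0.18 and MRKO minus MKO was -0.15 ± 0.21, and neither passed (limma, adjusted p = 0.086 and 0.72). Since the probe set passed the filter only through WT and MKO arrays, a lower value without Ager was favoured by the filter, and these differences are given as a description.

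H2-T23 encodes Qa-1, which shows peptides from class I leader sequences to the inhibitory NK receptor NKG2A. Both probe sets that list it also list H2-T-ps, so neither is given to H2-T23 alone. The brighter (1449556_at) averaged 12.56 ± 0.20 in MRKO, 12.58 ± 0.28 in MKO, 12.44 ± 0.23 in RKO and 12.80 ± 0.12 in WT livers, and RKO minus WT was -0.37 ± 0.13 (limma with these probe sets added, adjusted p = 0.13). The dimmer (1419658_at) was under the filter, with group means of 3.89 in MRKO, 3.24 in MKO, 3.53 in RKO and 3.25 in WT livers.

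B2m, the light chain shared by class I heavy chains, had overlapping readings in all genotypes on both of its probe sets. On 1449289_a_at it read 14.18, 14.20, 13.93 and 14.13 in MRKO livers and 14.13, 14.17, 14.17 and 14.17 in MKO livers. Among RKO livers it spanned 14.07 through a median of 14.15 to 14.19, against 14.10, 14.14, 14.12, 14.14 and 14.20 in WT livers. All groups overlapped and the within-group SD was 0.07. RKO minus WT was -0.00 ± 0.07 (-0.15 to 0.15; limma, adjusted p = 0.99) on this probe set and 0.06 ± 0.07 (-0.08 to 0.21; limma, adjusted p = 0.62) on 1452428_a_at, so that the intervals reached no further than 1.16-fold.

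Tap1 and Tap2 form the transporter that carries peptides into the endoplasmic reticulum, and both read low in all groups. Tap1 (1416016_at) read 4.54, 4.95, 4.88 and 4.93 in MRKO livers and 4.88, 6.05, 4.88 and 5.06 in MKO livers. Its 6 RKO values ran from 3.94 through a median of 4.97 to 5.59, against 4.49, 4.88, 5.06, 4.84 and 4.29 in WT livers. MKO 2 stood over all other arrays and RKO 6 under them. MKO minus WT was 0.51 ± 0.28 (-0.09 to 1.10; limma, adjusted p = 0.34), RKO minus WT was 0.19 ± 0.26 (-0.35 to 0.73; limma, adjusted p = 0.7) and MRKO minus MKO was -0.39 ± 0.30 (-1.02 to 0.23; limma, adjusted p = 0.51).

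Tap2 (1453913_a_at) read 3.84, 4.47, 5.23 and 4.57 in MRKO livers and 4.32, 5.16, 4.64 and 5.22 in MKO livers. Its RKO values ran from 3.88 through a median of 4.49 to 4.60, against 3.77, 4.18, 4.45, 3.89 and 4.44 in WT livers. Of the 4 MKO arrays 3 lay over all WT arrays, and MKO 1 lay among them. MKO minus WT was 0.69 ± 0.25 (0.17 to 1.21; 1.61-fold; limma, adjusted p = 0.16). Without MKO 1 it was 0.86 ± 0.25 and passed (limma, adjusted p = 0.042), in a setting where 1378 of all 13505 tested probe sets were called.

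Tapbp, whose product tapasin bridges the heavy chain and the transporter, had 2 tested probe sets. The brighter (1421812_at) read 10.64, 10.94, 10.40 and 10.51 in MRKO livers and 10.52, 10.94, 10.79 and 10.88 in MKO livers. The RKO livers ranged from 10.44 through a median of 10.64 to 10.79, against 10.57, 10.68, 10.46, 10.38 and 10.53 in WT livers. The groups overlapped. MKO minus WT was 0.26 ± 0.12 (limma, adjusted p = 0.27) and RKO minus WT 0.11 ± 0.11 (-0.12 to 0.34; limma, adjusted p = 0.61). The dimmer (1450378_at) gave the largest RKO minus WT value among the 18, 0.30 ± 0.24 (-0.20 to 0.79; limma, adjusted p = 0.49), with arrays from 4.42 to 5.93 within RKO.

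**Figure D5:**
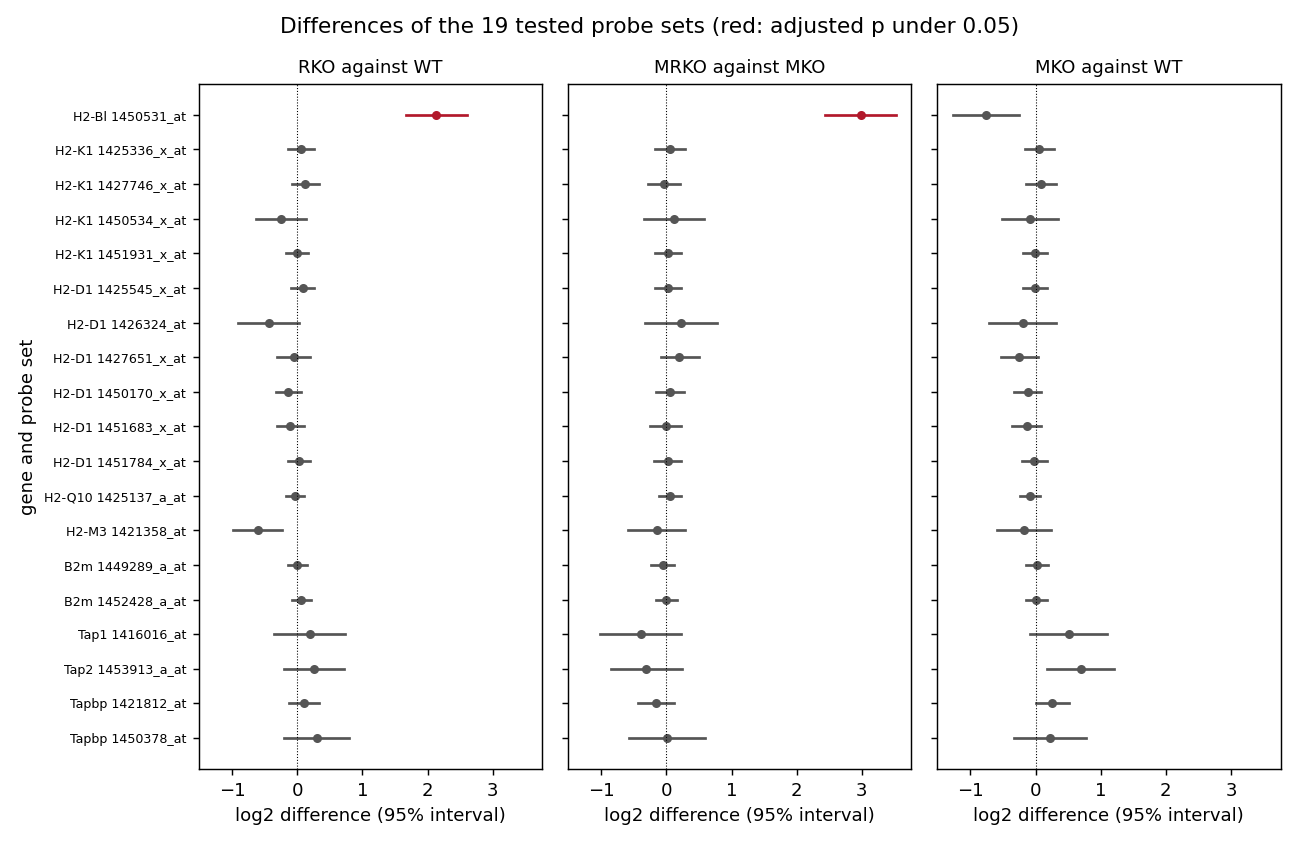
Log2 difference with its 95% interval (x axis) of each of the 19 tested probe sets (y axis) in RKO against WT, MRKO against MKO and MKO against WT; red marks an adjusted p under 0.05. H2-Bl is red at 2.13 and 2.98 in the panels of Ager loss and grey at -0.76 in the panel of Myd88 loss, and no other probe set is red.

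Over the 18 probe sets other than H2-Bl, differences ran from -0.60 (H2-M3) to 0.30 (Tapbp) in RKO against WT, and 1 of 18, that of H2-M3, had an unadjusted limma p under 0.05, against 21% of all tested. The same 1 of 18 did in the pooled comparison, against 9.64%. In MKO against WT they ran from -0.25 (H2-D1) to 0.69 (Tap2), and 2 of 18, Tap2 and Tapbp, had an unadjusted p under 0.05, where 18.6% of all tested had. In MRKO against WT, MRKO against RKO and MRKO against MKO 0 of 18 did, where 7.57%, 21.8% and 15.6% of all tested did, and the differences ran from -0.33 to 0.38, from -0.08 to 0.46 and from -0.39 to 0.22. In the interaction 0 of 18 did, against 26% of all tested, with estimates from -0.58 (Tap1) to 0.66 (H2-D1). With H2-Bl included, the median absolute difference of the 19 was 0.11 in RKO against WT, against 0.19 for all tested probe sets, and 0.05 in the pooled Ager comparison, against 0.10. The 19 are not separate readings, since 4 belong to H2-K1 and 6 to H2-D1, nearly all with the x_at mark. Their within-group SDs ran from 0.05 (H2-Q10 and B2m 1452428_a_at) to 0.45 (Tap1), most of them under the median of 0.28 for all tested. These medians are therefore given as a description.

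The rest of the class I pathway was read from gene lists, with each gene given by its brightest probe set. Of other class I and class I-like genes, 6 of 28 were tested, and 0 were called in 7 limma comparisons, where 0.148% to 1.57% of all tested probe sets were called. H2-Q5, the one of them in the MHC, gave RKO minus WT 0.35 ± 0.19 (adjusted p = 0.3) and MRKO minus MKO 0.37 ± 0.22 (adjusted p = 0.4). Fcgrt, the neonatal Fc receptor, and Hfe, which controls iron uptake, gave RKO minus WT -0.06 ± 0.10 and -0.16 ± 0.12 (limma, adjusted p = 0.77 and 0.46). In RKO against WT 0 of the 6 had an unadjusted limma p under 0.05, against 21% of all tested. MRKO against RKO had 2 of 6, against 21.8%, and the other comparisons had 0 or 1, against 7.57% to 26%.

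The immunoproteasome, which cuts many class I peptides, gave 0 of 6 called in each of the 7 comparisons, against 0.148% to 1.57% of all tested. Psmb8 and Psmb9, subunits encoded beside Tap1 and Tap2, gave RKO minus WT -0.16 ± 0.26 and -0.51 ± 0.42 (limma, adjusted p = 0.75 and 0.5). At an unadjusted limma p under 0.05 the list had 1 of 6 in MRKO against RKO, against 21.8% of all tested. It had 0 in the other comparisons, against 7.57% to 26%. The median of the list was -0.14 in RKO against WT, against 0.03 for all tested probe sets.

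Peptide trimming and loading chaperones gave 0 of 11 called in each comparison, where 0.148% to 1.57% of all tested probe sets were. At an unadjusted limma p under 0.05 there were 5 of 11 in MRKO against RKO, against 21.8% of all tested. In RKO against WT there were 2 of 11, against 21%. The other comparisons had 0 or 1 of 11, against 7.57% to 26%. The glycoprotein folding sensor gene Uggt1 gave RKO minus WT 0.82 ± 0.22 (adjusted p = 0.067). Erap1, the aminopeptidase that trims class I peptides, gave MRKO minus MKO -0.60 ± 0.21 (limma, adjusted p = 0.24). The chaperones Calr, Canx and Pdia3 gave RKO minus WT 0.13 ± 0.09, 0.11 ± 0.09 and 0.26 ± 0.16 (limma, adjusted p = 0.4, 0.52 and 0.36).

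Regulators of class I transcription gave 0 of 19 called in each comparison, where 0.148% to 1.57% of all tested probe sets were. At an unadjusted limma p under 0.05 there were 3 of 19 in MRKO against WT and in the pooled comparison, against 7.57% and 9.64% of all tested. RKO against WT and MKO against WT also had 3 of 19, against 21% and 18.6%. MRKO against RKO, MRKO against MKO and the interaction had 5 of 19, against 21.8%, 15.6% and 26%. Nlrc5, the class I transactivator, gave RKO minus WT -0.01 ± 0.22 and MRKO minus MKO -0.67 ± 0.26 (limma, adjusted p = 0.98 and 0.26). The interferon-induced factor gene Irf1 gave MKO minus WT -0.43 ± 0.14 (limma, adjusted p = 0.14) and RKO minus WT 0.04 ± 0.13 (adjusted p = 0.87).

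Of 17 tested interferon-stimulated genes, 1 was called in 1 comparison, MRKO against WT, where 0.267% of all tested probe sets were called. The chemokine gene Cxcl10 fell by 1.88 ± 0.39 (log2) in MRKO against WT (limma, adjusted p = 0.049), with 4.39, 4.46, 4.07 and 4.46 in MRKO livers against 5.13, 7.30, 5.54, 6.04 and 7.09 in WT livers, and these arrays did not overlap, as was so for 3.42% of all tested. At an unadjusted p under 0.05 this list had 0 to 3 members in each comparison, where 7.57% to 26% of all tested were under it. In RKO against WT its median was -0.18, against 0.03 for all tested probe sets, and 0 of 17 were called, against 0.74% of all tested.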

How the data were processed

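Liver RNA of 19 mice was measured on 1 array each, and group and replicate were taken from the sample titles. The deposited values are log2 levels, 1 per probe set and array, from GCRMA 2.16, per the submitters' processing notes. GCRMA removes background by probe sequence, normalizes between arrays and combines each set of probes into 1 value. RNA was amplified and biotin-labelled for 3' ends, per the labels' protocols, and no source used here gives other settings. Precision is limited by how many arrays a group has.

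The array has 45101 probe sets: 34945 with exactly 1 gene symbol, 932 with several, 9160 without any and 64 controls. Those with 1 symbol and over log2 4 on at least 4 arrays (13505) were tested with limma 3.58.1 in R 4.3.3 on the log2 scale, with the 4 groups in 1 fit. Tests were two-sided, and p-values were adjusted by Benjamini-Hochberg over all tested probe sets of a comparison and called at an adjusted p under 0.05. Each of the 7 comparisons is the group named first minus the second. A difference is given ± SE and a group mean ± SD. No array repeats another, since the closest pair within a group lay a root mean square of 0.335 (log2) apart. The labels speak of RNA per mouse, so arrays were treated as separate animals.

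Every probe set of the 10 genes was a feature of its own. The genes, the lists and the naming rule (all probe sets of these genes, Ager and Myd88, called list members, and the 5 probe sets most like H2-Bl) were chosen with earlier results of these data known. Other list genes given, and RKO 6, were chosen after their values were seen. Marker lists for 9 cell types or tissues were read as mean log2 scores. Counts near Ager cover all tested probe sets, while lists use the brightest probe set of each gene. Replicate numbers were not taken to pair the arrays: the labels state no pairing, and 7 of 21 same-number pairs had a correlation of deviations over 0.1 (range -0.31 to 0.29). The script was tested on simulated data. Alternatives were other scalings and filters, blocks, fewer groups in the fit and leaving out each array; probe sets with several symbols were added after the data were seen.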

Additional observations from a re-analysis of the deposited data

Results flagged for a closer look

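Single arrays stood away from the rest of their group, by a gap large for the group's range, in 7 of 76 groups of arrays, where chance gives about 1 in 20. H2-Bl read 9.73 in RKO 6, against 8.87 to 9.16 in the other RKO livers, and 7.63 in WT 4, against 6.73 to 6.99 in the other WT livers. Without RKO 6 the RKO minus WT difference of H2-Bl was 2.02 ± 0.22, and without WT 4 it was 2.28 ± 0.22 (limma, adjusted p = 0.00028 and 5.3e-05). H2-Q10 read 13.73 in MKO 4, against 13.85 to 13.86, and B2m (1449289_a_at) 14.13 in MKO 1, against 14.17 in the others. Tap1 read 6.05 in MKO 2, against 4.88 to 5.06, Tap2 3.88 in RKO 6, against 4.34 to 4.60, and Tapbp (1450378_at) 5.71 in MKO 3, against 5.01 to 5.13.

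Outside the probe sets with 1 symbol, 1447260_at, annotated to Gm38417, LOC547349 and H2-Bl, read 1.59 ± 0.19 higher in RKO than in WT, 1.71 ± 0.21 higher in MRKO than in WT and 2.06 ± 0.22 higher in MRKO than in MKO livers (log2, SE). MKO arrays read at most 3.67 and WT arrays at most 4.03, close to or under the log2 4 of the filter, which it passed mainly through the arrays without Ager. The differences are therefore given as a description.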

How the results depend on the processing

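H2-Bl was called in all 29 alternatives for RKO against WT (2.02 to 2.28; limma, adjusted p 4.7e-06 to 0.0069), all 29 for MRKO against WT (2.14 to 2.37; 8.0e-06 to 0.0012), all 29 for MRKO against MKO (2.79 to 3.27; 4.3e-07 to 0.0087) and all 28 for the pooled Ager comparison (2.46 to 2.70; 6.5e-09 to 2.1e-05). Leaving out 1 array at a time, the count of called class I and loading probe sets ran from 0 to 2 in MKO against WT and from 0 to 1 in the interaction, changing only without MKO replicate 1, and it was 1 or 0 as before in the other comparisons. Without that array H2-Bl passed in MKO against WT (-1.05) and in the interaction (1.13), and Tap2 in MKO against WT (0.86), and the cause was not tested. Calls over all 13505 tested probe sets rose as well without it. They went from 36 to 1378 in MKO against WT and from 212 to 2539 in the interaction. Of 3569 values of the other 18 probe sets under the alternatives, 1 was called, that of Tap2.

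The replicate block, for numbers that do not pair the arrays, left the count of called members at 1 or 0 as before in all 7 comparisons, with H2-Bl at 2.02 in RKO against WT, and moved the count over all tested from 100 to 231 there and from 20 to 9 in MRKO against MKO. Whole-table counts are less stable than those of the members. Leaving out 1 array, they ran from 36 to 548 in RKO against WT (100 with all arrays), 11 to 1378 in MKO against WT (36), 20 to 40 in MRKO against WT (36), 20 to 523 in MRKO against RKO (198), 6 to 639 in MRKO against MKO (20), 26 to 66 pooled (38) and 0 to 2539 in the interaction (212). Under the other settings they ran from 44 to 231, 8 to 84, 27 to 39, 106 to 517, 6 to 22, 25 to 156 and 14 to 233, in the same order. The split of higher to lower calls was 67 to 33 in RKO against WT and 58 to 46 after renewed quantile normalization. It was 28 to 8 in MKO against WT, 5 to 7 after that normalization and 56 to 7 after median centring, and in the interaction 36 to 176 and, after that normalization, 56 to 100. Median centring also gave 126 to 58 in MRKO against RKO (114 to 84) and 8 to 3 in MRKO against MKO (12 to 8). With the S range as a block the split was 31 to 74 in RKO against WT, 164 to 40 in MRKO against RKO, 10 to 3 in MRKO against MKO, 46 to 110 pooled (22 to 16) and 10 to 4 in the interaction. With only the groups compared in the fit it was 3 to 5 in MKO against WT and 224 to 293 in MRKO against RKO. Tap2, H2-M3 and Tap1 lie near log2 4, where signal over background limits them.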

Other observations

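RKO 6, the liver with the highest H2-Bl, had the lowest readings of several interferon-linked class I genes, a pattern chosen after the values were seen. In RKO 6 Psmb9 read 5.68, against 6.89 or more on the other 18 arrays, and Psmb8 read 7.82, against 8.30 or more. Tap1 at 3.94 and Tapbp (1450378_at) at 4.42 were also the lowest of 19, while Tap2 at 3.88 was the lowest of RKO. The brighter Tapbp probe set (1421812_at) lay within the other RKO livers. Psmb10 at 8.59 was also the lowest of RKO, with MKO 4 under it at 8.43. Irf1 at 5.16 and Cxcl10 at 5.28 did not follow and lay within the other RKO livers (5.09 to 5.84 and 4.14 to 5.86). The mean of RKO 6 over interferon-stimulated genes was 5.43, against 6.07 or more on the other arrays, and its mean over immunoproteasome genes was 8.39, against 8.87 or more. Its Kupffer cell and macrophage score of 7.98 lay within the 7.85 to 9.04 of the RKO livers. The brightest H2-K1 (1425336_x_at) and H2-D1 (1451784_x_at) probe sets, at 12.85 and 12.92, were the lowest of RKO. So were H2-K1 1451931_x_at and H2-D1 1425545_x_at. Against this, H2-K1 1450534_x_at was the highest of RKO and H2-D1 1427651_x_at the highest of 19. The other tested probe sets of these genes lay within the other RKO livers. B2m lay within the RKO range on 1449289_a_at, at 14.14, and was the lowest of RKO on 1452428_a_at.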
